A study of Mus musculus with 18 samples.

Results

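The rescue hybrid males of this study carried the PWD and the humanized allele of Prdm9, and 4530 of the 15019 autosomal hotspots of their DMC1 map were Hum-type and symmetric. Hum-type means that a hotspot centre of Hum/Hum males lay within 1000 bp and no centre of PWD/PWD males did. Symmetric means that the share of DMC1 signal from the B6 chromosome, the B6 share, was 0.1 to 0.9. Bins that the authors marked as likely PRDM9-independent H3K4me3 were left out. Of the 15019 hotspots 7876 were Hum-type, 5012 of these were symmetric, and 482 of the symmetric sites carried the mark and were removed. A further 1160 Hum-type sites had no B6 share and could not be classed. The 4530 sites were 30.2% of the rescue F1 hotspots and held 33.3% of their heat, the authors' DMC1 signal of a hotspot. The authors' own column of allele origin gave the Hum allele for 4507 of them, left 21 undetermined and gave PWD for 2.

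DMC1 was mapped in testes of males about 10 weeks old, with 1 library per genotype, and H3K4me3 was counted in whole adult testis in 1 kb bins centred on the hotspots. The rescue F1 males were (PWDxB6)F1 sons of PWD mothers with the PRDM9 genotype PWD/Humanized, and the Hum/PWD F1 males came from the opposite cross, (B6xPWD)F1, with the genotype Humanized/PWD. The B6/Hum and Hum/Hum males were C57BL/6J with the genotypes B6/Humanized and Humanized/Humanized, and the PWD/PWD males were PWD/PhJ. Males without a humanized allele gave the infertile F1 map (PWD mothers, PWD/B6), the reciprocal F1 map (B6 mothers, B6/PWD), the B6 by CAST F1 map (B6/CAST) and the B6/B6 map, and the labels call the infertile and rescue mice littermates in the H3K4me3 experiment. The rescue F1 H3K4me3 table held 2 biological replicates of 40 to 50 M read pairs each, and the Hum/Hum table came from 1 library of 70 to 80 M read pairs split into 2 pseudoreplicates. Whole testis holds many cell types besides the spermatocytes that make breaks. Fewer such cells and less signal per cell therefore cannot be told apart. Because each DMC1 map is 1 library, no difference between genotypes was tested. Intervals below are 95% intervals over hotspots, Wilson intervals for shares and order-statistic intervals for medians. They cover the counting of hotspots only, since hotspots of 1 library are not replicates.

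PRDM9 binds DNA through an array of zinc fingers and sets H3K4me3 beside its site, and meiotic breaks then form there. DMC1 coats the single-stranded ends of a break and takes part in the search of the homologous chromosome for the repair template. A hotspot is symmetric when PRDM9 binds the site on both homologues, and asymmetric when sequence differences confine binding mostly to one of them. In the humanized allele the mouse zinc fingers are replaced by those of a human PRDM9 allele, whose best-known binding motif is a C-rich 13-mer.

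The motif was searched as CCTCCCTNNCCAC, where N is any base, on both strands of the B6 reference. The 6 sequences below are shown because they are among the hottest symmetric sites, 1 per chromosome, with this 13-mer within 150 bp of the centre. Each has 100 bases of GRCm38 (mm10), read 5′ to 3′ on the strand of the motif, with the 13-mer in capitals.
near Reep3: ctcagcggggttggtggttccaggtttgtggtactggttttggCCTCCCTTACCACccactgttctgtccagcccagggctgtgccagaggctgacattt
near Cetn4: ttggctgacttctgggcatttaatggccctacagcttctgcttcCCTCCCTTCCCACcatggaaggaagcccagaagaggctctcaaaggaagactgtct
near Zfp423: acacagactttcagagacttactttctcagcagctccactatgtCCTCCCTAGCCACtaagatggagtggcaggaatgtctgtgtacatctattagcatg
Chd7 site: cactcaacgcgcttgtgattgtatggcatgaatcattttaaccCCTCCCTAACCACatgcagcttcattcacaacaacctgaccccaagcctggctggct
near Scfd1: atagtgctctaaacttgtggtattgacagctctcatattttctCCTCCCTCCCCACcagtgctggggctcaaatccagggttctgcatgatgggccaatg
near Ppil2: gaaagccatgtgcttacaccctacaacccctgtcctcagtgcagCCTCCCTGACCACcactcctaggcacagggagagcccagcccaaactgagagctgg

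The first of these sites lay at chr10:66871385-66871484 on the minus strand, 137622 bp from Reep3, and the second at chr3:37289438-37289537 on the plus strand, 18183 bp from the centrin gene Cetn4. Both hotspot centres were intergenic. The third lay at chr8:87740316-87740415 on the plus strand, beside a hotspot centre in an intron of Zfp423, a zinc-finger transcription factor gene, and the fourth at chr4:8811157-8811256 on the minus strand, around a hotspot centre in an intron of Chd7, a chromatin remodeller gene. The fifth lay beside an intergenic centre at chr12:51498864-51498963 on the minus strand, 48917 bp from Scfd1, and the sixth at chr16:17093093-17093192 on the plus strand beside a hotspot centre in a coding exon of Ppil2. Rescue F1 heat at the 6 sites was 499.2, 471.9, 460.3, 426.8, 402.3 and 399.7 in this order, against 485.1, 385.3, 407.6, 645.4, 339.3 and 353.6 in Hum/Hum males. The Chd7 site alone was clearly colder in the rescue F1, but the 6 sites were picked for high rescue F1 heat. H3K4me3 enrichment was highest at the Zfp423 site, with 8.20 and with 306 and 365 ChIP fragments in replicates 1 and 2. Enrichment is the authors' estimated ratio of ChIP signal to local background and is 0 where there is none.

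Most of the symmetric sites hold no such match, and some of the hottest are among them. For contrast, 2 very hot sites with neither the 13-mer nor its degenerate form within 150 bp are shown, as 100 plus-strand bases around the centre, all in lower case.
near Phtf2: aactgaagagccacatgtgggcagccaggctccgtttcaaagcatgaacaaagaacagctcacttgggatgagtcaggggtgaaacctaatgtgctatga
Cfap54 site: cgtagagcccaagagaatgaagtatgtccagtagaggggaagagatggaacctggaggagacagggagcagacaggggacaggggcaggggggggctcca

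These lay at chr5:20754283-20754382, in intergenic DNA 4331 bp from Phtf2, and at chr10:93007594-93007693, in an intron of Cfap54, a cilia- and flagella-associated protein gene. The Phtf2 site had a heat of 933.2 in the rescue F1, 696.5 in the Hum/PWD F1, 1101.9 in B6/Hum and 1016.7 in Hum/Hum males. Its B6 share was 0.747 in the rescue F1 and 0.694 in the Hum/PWD F1 by DMC1, and 0.575 by H3K4me3. The Cfap54 site was nearer to balance, with B6 shares of 0.419, 0.435 and 0.577 by the same 3 measures, and its heat was 927.5 in the rescue F1, 811.6 in the Hum/PWD F1, 771.7 in B6/Hum and 776.9 in Hum/Hum males. H3K4me3 was strong at both, with 120 fragments in each replicate at Phtf2 and 178 and 183 at Cfap54. The missing motif says only that these letters are not in the window.

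Across all symmetric sites the 13-mer was rare but centred. It lay within 150 bp of 80 of the 4530 centres, 1.77% (1.42 to 2.19%), and in 7 of 9060 windows of the same length 2000 bp to either side, 0.0773%. Among all rescue F1 hotspots 0.912% held it. The degenerate form CCNCCNTNNCCNC, which every 13-mer match also satisfies, lay near 740 centres, 16.3% (15.3 to 17.4%), against 2.69% of the flanking windows and 9.9% of all rescue F1 hotspots. Symmetric hotspots of PWD type, which matched the PWD/PWD map and not the Hum/Hum map, held the degenerate form in 2.04% (1.47 to 2.82%) and their own flanks in 2.56%. Hum-type sites on the B6 chromosome, with a B6 share above 0.9, held it in 13.5% (11.7 to 15.4%). That interval met the interval of the symmetric sites, while PWD-type sites stood far below both. For the 13-mer, sites on the B6 chromosome had 0.972% (0.569 to 1.66%), which also overlapped. Mean GC was 44.7% within 150 bp of the symmetric centres and 43.6% in the flanks, and its part in the motif counts was not tested.

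**Figure D1:**
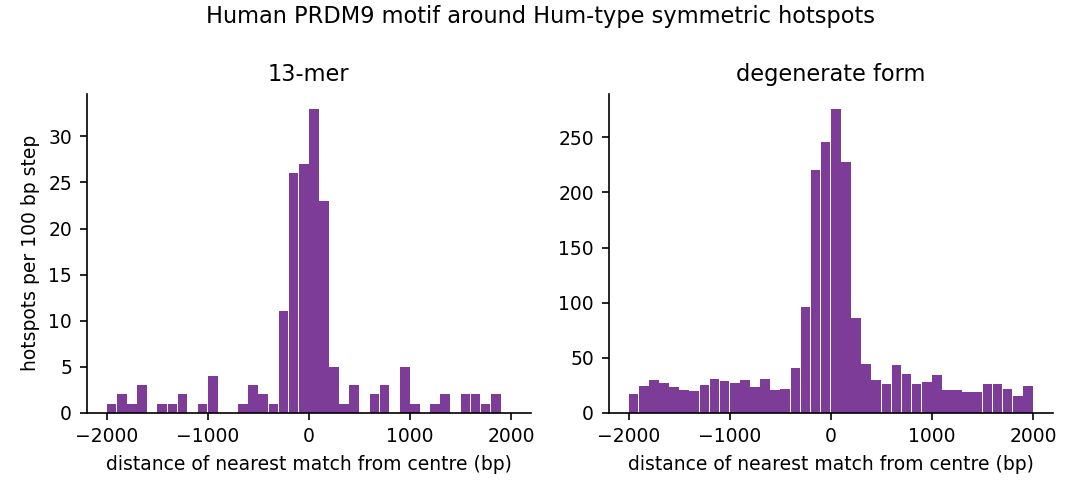
Distance in bp from the hotspot centre to the nearest match within 2000 bp, as the number of Hum-type symmetric hotspots per 100 bp step, for the 13-mer (left) and the degenerate form (right). Both pile up within about 300 bp of the centre, with 33 and 276 hotspots in the step from 0 to 100 bp.

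The plot of motif distance shows matches on both sides of the centre, and the 80 nearest 13-mers were split into 41 on the plus and 39 on the minus strand. Their median distance from the centre was 53.5 bp. Sites with the degenerate form also had more signal. Median rescue F1 heat was 84.4 (63.7 to 111.2) at the 80 sites with the 13-mer and 83.4 (75.6 to 91.1) at 660 with only the degenerate form, against 64.8 (62.1 to 67.9) at 3790 with neither. The interval of the 80 sites overlaps that of sites with neither form. Enrichment had medians of 1.64, 1.52 and 1.13 in the same order, and the B6 share was alike, with 0.484, 0.493 and 0.483. Ranked by heat in the rescue F1, the 13-mer was near 2.29% of the 1133 hottest and 1.32% of the 1138 coldest sites.

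The 8-base words most in excess within 50 bp of the centre were also C-rich. They were CCCCCACC, CCCCACCC, CCCACCCC, CCCCCCCA and CCCCCCAC, counted on both strands and chosen for their excess, so they carry no test. CCCCCACC was present at 3.36% of the symmetric sites, 0.806% of the flanks and 0.699% of PWD-type symmetric sites. Since the words overlap, they were counted together as well, and 298 sites or 6.58% held at least 1. Repeat-masked bases made up 21.2% of the centre windows and 26.2% of the flanks.

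The sites were chosen by 3 measured values, the B6 share of rescue F1 DMC1, the distance to called centres of the Hum/Hum and PWD/PWD maps, and the authors' mark, and all are given as description. Rescue F1 heat was 13.8 to 949.9 with a median of 67.9 (65.0 to 70.3), against a median of 54.0 at the 10489 other rescue F1 hotspots. Among those others, Hum-type sites on the B6 chromosome had a median of 66.15 (62.1 to 71.7). Hum-type sites on the PWD chromosome, with a B6 share below 0.1, had 103.35, and Hum-type sites without a B6 share 35.5. The B6 share had a median of 0.484, with the middle 50% of sites at 0.37 to 0.621. The matched Hum/Hum centre lay a median of 74 bp away and at most 977 bp, with 49 matches beyond 500 bp. A total of 8 sites shared their Hum/Hum match with another site, and 91 had a PWD/PWD centre between 1000 and 2000 bp away. Just inside the lower limit, 61 sites with a B6 share of 0.1 to 0.12 had a median heat of 69.1, and just outside it, 47 sites from 0.08 had 67.2. Just inside the upper limit, 113 sites from 0.88 to 0.9 had a median heat of 37.3, and just outside it, 150 sites up to 0.92 had 39.95. The limits thus cut through sites of like heat.

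Nearly all symmetric sites were hotspots again in the other maps with a Hum allele. In the Hum/PWD F1, a separate library from the opposite cross, 4431 of 4530 were found, 97.8% (97.3 to 98.2%), which is close to the 95.9% of all rescue F1 hotspots. In the B6/Hum males 4401 were found, 97.2% (96.6 to 97.6%), against 52.9% of all rescue F1 hotspots. The rule fixes part of this difference, since it asks for a Hum/Hum match, and Hum-type sites on the B6 chromosome were found in B6/Hum males at 98.95%. The few that were missing were cold, with a median rescue F1 heat of 20.9 for the 99 absent from the Hum/PWD F1 and 30.1 for the 129 absent from B6/Hum males. Of the 1138 coldest sites, with heat up to 37.1, 91.5% were found in the Hum/PWD F1, and of the 1133 hottest, with heat from 135.1, all were.

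Maps without a Hum allele held almost none of these sites. The counts were 41 in the infertile F1, 0.905% (0.668 to 1.23%), 33 in the reciprocal F1, 0.728%, 73 in the B6 by CAST F1, 1.61%, and 60 in B6/B6 males, 1.32%. Of all rescue F1 hotspots the same maps held 34.5%, 33.5%, 9.25% and 2.34%. Hum-type sites on the B6 chromosome were similarly scarce there, with 1.42%, 1.12%, 1.42% and 1.2%. PWD-type symmetric sites, which the rule leaves out, were found in the B6 by CAST F1 at 19.8%. The infertile and reciprocal males share the PWD allele with the rescue F1, and the rule leaves out sites near a PWD/PWD centre, so these 2 low counts follow in large part from the rule.

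Heat at the symmetric sites followed the Hum/Hum map in rank but mostly stood below it. The ratio of rescue F1 to Hum/Hum heat had a median of 0.618 (0.607 to 0.633), and 3726 of 4530 sites, 82.3%, lay below 1. For the Hum/PWD F1 the median was 0.541 (0.530 to 0.553), with 87.6% below 1, and for B6/Hum males 0.814 (0.800 to 0.827), with 71.2% below 1. All 3 maps are set against the same Hum/Hum library. Each map's heat sums to nearly the same total, 1.45e6 in rescue F1 and 1.42e6 in Hum/Hum males, and F1 and B6/Hum maps spread that total over the sites of another allele too. The ratio therefore does not measure breaks per cell. Spearman correlation with Hum/Hum heat was 0.813 over 4530 sites in the rescue F1, 0.827 over 4431 in the Hum/PWD F1 and 0.927 over 4401 in B6/Hum males. These are descriptions over sites of single libraries.

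The hottest Hum/Hum sites kept more of their heat in the F1 and B6/Hum maps than sites of middle heat. At the 1132 sites with Hum/Hum heat from 197.7 to 1016.7, median ratios to Hum/Hum were 0.712 in the rescue F1, 0.676 in the Hum/PWD F1 and 1.01 in B6/Hum males. At the 1132 from 70.9 to 119.4 they were 0.519, 0.439 and 0.705. The coldest sites, up to 70.8, had 0.685 over 1135 sites in the rescue F1, 0.518 over the 1045 found in the Hum/PWD F1 and 0.684 over the 1011 found in B6/Hum males. Sites enter only where each map called them, and the part of this in the values of the coldest sites was not tested.

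The ratio also moved with the B6 share. Sites with a share of 0.1 to 0.2, with most signal from the PWD chromosome, had a median ratio of rescue F1 to Hum/Hum heat of 1.20 (1.07 to 1.27, n = 249). It was lower in every following bin, with 0.666 at 0.4 to 0.5 (n = 995) and 0.446 (0.430 to 0.465) at 0.8 to 0.9 (n = 417). The share and the heat here come from the same rescue F1 reads. The Hum/PWD F1 heat of the same sites, from a library that did not set the bins, was also lower in each later of these 3 bins, with 1.08, 0.584 and 0.358, though not in every step between them. B6/Hum males, whose homologues are both B6, had 0.671, 0.877 and 0.742, without a steady fall.

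**Figure D2:**
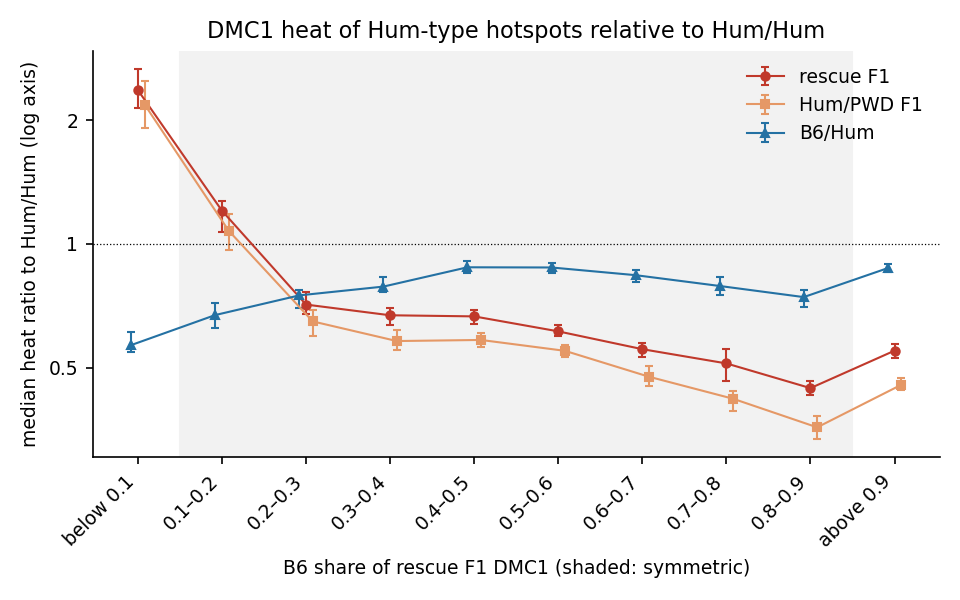
Median ratio of DMC1 heat to Hum/Hum heat (log axis) at Hum-type hotspots against the B6 share of DMC1 in the rescue F1, for rescue F1, Hum/PWD F1 and B6/Hum males, with 95% order-statistic intervals over hotspots. Within the shaded symmetric range the rescue F1 median is 1.20 in the lowest bin and 0.446 in the highest, while B6/Hum stays between 0.671 and 0.877.

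The plot of heat ratio by B6 share also shows both one-sided classes. The 244 Hum-type sites with a share below 0.1 had a ratio of 2.37 (2.14 to 2.66) in the rescue F1. In B6/Hum males, where 164 of them were found, it was 0.567, and their Hum/Hum heat was low, with a median of 42.7. The 1338 sites above 0.9 had 0.550 (0.528 to 0.571) in the rescue F1 and, at the 1324 found there, 0.873 in B6/Hum males. The heat assigned to each homologue, the product of heat and share, was related to Hum/Hum heat with a Spearman correlation of 0.823 on the B6 chromosome and 0.661 on the PWD chromosome over the 4530 symmetric sites. The Hum/Hum males carry B6 sequence only.

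The 2 crosses with a PWD and a Hum allele gave nearly the same ranking. Heat in the Hum/PWD F1 and in the rescue F1 had a Spearman correlation of 0.948 over 4431 sites. The ratio of Hum/PWD F1 to rescue F1 heat had a median of 0.869 (0.860 to 0.879), and 90% of sites lay between 0.512 and 1.33. It was 0.824 (0.809 to 0.845, n = 1299) at Hum-type sites on the B6 chromosome, 1.12 (1.10 to 1.14, n = 1697) at PWD-type symmetric sites and 0.955 (0.946 to 0.961, n = 9972) over all other rescue F1 hotspots found in both maps. Hum-type sites thus stood lower and PWD-type sites higher in this pair of libraries. Among the hotter sites, those in the hottest 0.25 of the rescue F1 map, the largest ratios were 1.88 at a site 86415 bp from Hmga2 (chr10:120562884), 1.82 in a non-coding exon of Dzip1 (chr14:118877838) and 1.68 in a UTR of the monocarboxylate transporter gene Slc16a7 (chr10:125224997). The Hmga2 site had a heat of 229.3 in the Hum/PWD F1 and 121.9 in the rescue F1. The Dzip1 site had 295.2 and 161.8, and the Slc16a7 site 233.1 and 138.4.

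The smallest ratios were 0.319 at a site 100815 bp from Ogfrl1 (chr1:23265609), 0.462 in an intron of Tiam1, a Rac exchange factor gene (chr16:90109928), and 0.466 in an intron of the kainate receptor gene Grik1 (chr16:88268472). The Ogfrl1 site had a heat of 42.3 in the Hum/PWD F1 and 132.4 in the rescue F1, and the Tiam1 site 102.6 and 222.2. H3K4me3 at the Ogfrl1 site was weak, with 6 and 16 ChIP and 12 input fragments, and the Tiam1 site had 36 and 45 ChIP and 29 input fragments. The B6 share, with the Hum/PWD F1 before the rescue F1, was 0.342 and 0.367 at Ogfrl1 and 0.467 and 0.410 at Tiam1. It was 0.828 and 0.835 at Grik1. At the sites with the largest ratios it was 0.3 and 0.317 at Hmga2, 0.417 and 0.516 at Dzip1, and 0.566 and 0.571 at Slc16a7. No library repeats either value, so a spread between males of 1 genotype cannot be given.

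Symmetry was kept in measurements that did not choose the sites. In the Hum/PWD F1, 4111 of 4401 sites with a share, 93.4% (92.6 to 94.1%), again had a B6 share of 0.1 to 0.9, where 56.2% of all rescue F1 hotspots found there did. By rescue F1 H3K4me3, 3325 of 3511 bins with at least 10 informative reads were symmetric, 94.7% (93.9 to 95.4%), against 65.9% of all such rescue F1 bins. The median B6 share was 0.462 in the Hum/PWD F1 and 0.520 (0.516 to 0.526) by H3K4me3. From 0.3 to 0.7 lay 70.8% of sites in the Hum/PWD F1 and 77.5% by H3K4me3.

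**Figure D3:**
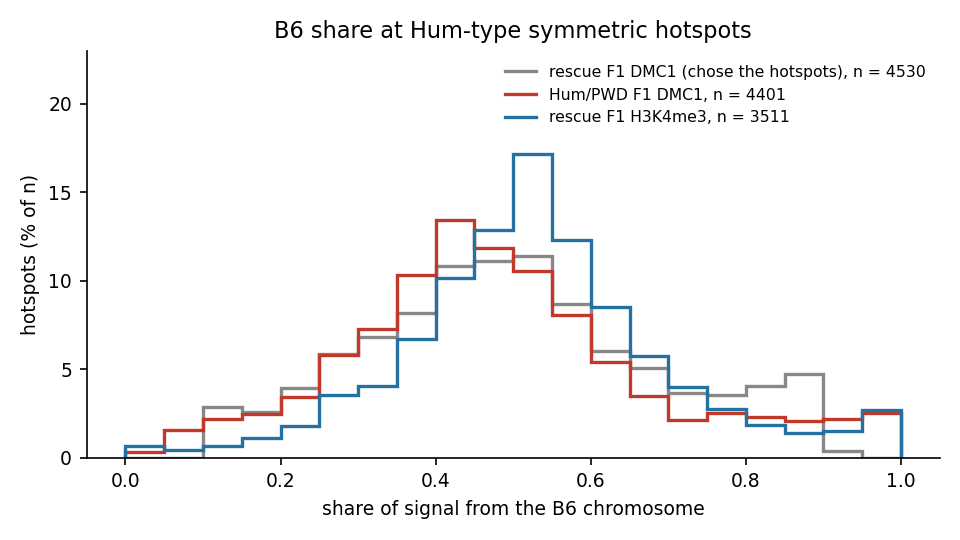
Share of signal from the B6 chromosome at Hum-type symmetric hotspots, as percent of hotspots per step of 0.05, for Hum/PWD F1 DMC1 (n = 4401) and rescue F1 H3K4me3 (n = 3511), with the rescue F1 DMC1 share that chose the hotspots (n = 4530) in grey. All 3 peak near the middle, and 206 hotspots by Hum/PWD F1 DMC1 and 148 by H3K4me3 lie above 0.9.

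As the plot of B6 shares shows, the sites that left the symmetric range did so mostly at the B6 end. In the Hum/PWD F1 206 lay above 0.9 and 84 below 0.1, and by H3K4me3 148 and 38. Those above 0.9 in the Hum/PWD F1 had a median rescue F1 share of 0.863, and those below 0.1 had 0.133, so most were near a limit already. Only 5 of the 206 and 3 of the 84 had a rescue F1 share between 0.3 and 0.7. By H3K4me3 21 of 148 and 11 of 38 did, with medians of 16.5 and 15.2 informative reads.

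Site by site, the DMC1 shares of both crosses lay close together. The Hum/PWD F1 share minus the rescue F1 share had a median of -0.014, 90% of sites lay between -0.196 and 0.168, and 341 sites, 7.75%, differed by more than 0.2. The Spearman correlation was 0.791 over 4401 sites. The H3K4me3 share stood higher than the rescue F1 DMC1 share, by a median of 0.036 over 3511 sites, and 17.8% differed by more than 0.2. With at least 30 informative reads the median difference was 0.029 over 2047 sites and 10.8% differed by more than 0.2. The correlation of H3K4me3 with DMC1 shares was 0.575 for the rescue F1 and 0.596 over 3453 sites for the Hum/PWD F1. All these correlations run over a range of shares that the rule narrowed, and sites share their libraries.

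The most balanced of the hotter sites were near 0.5 in all 3 measures, which is how they were picked. A site 19347 bp from Lamtor5 (chr3:107259511) had B6 shares of 0.505 in the rescue F1, 0.511 in the Hum/PWD F1 and 0.497 by H3K4me3, and heats of 449.2, 422.1, 538.7 and 479.7 in the rescue F1, Hum/PWD F1, B6/Hum and Hum/Hum males. A site 33907 bp from the homeobox gene Nkx1-1 (chr5:33467883) had shares of 0.505, 0.508 and 0.511, with 262 and 290 ChIP fragments over 44 input fragments. The third, in an intron of Wdfy1 (chr1:79712893), had shares of 0.5, 0.515 and 0.497 and nearly the same heat in all but B6/Hum males, with 327.1 in the rescue F1, 326.2 in the Hum/PWD F1, 401.8 in B6/Hum and 332.0 in Hum/Hum males.

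H3K4me3 was called at most symmetric sites, as at most rescue F1 hotspots. The deposited p-value was under 0.05 at 4185 of 4530 bins, 92.4% (91.6 to 93.1%), against 88.2% of all rescue F1 bins, and at 98.3% of the Hum/Hum bins of the same sites. Enrichment had a median of 1.19 (1.15 to 1.24) in the rescue F1 and 1.51 in Hum/Hum males, and was 0 at 43 sites. The 2 tables have separate scales. Replicates 1 and 2 held a median of 39 and 44 ChIP fragments per bin over 27 input fragments, and their counts had a Spearman correlation of 0.953. Enrichment in the rescue F1 was related to that in Hum/Hum males with a correlation of 0.777, and to rescue F1 heat with 0.723.

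The highest enrichments among the hotter sites were 12.2 at a site 20244 bp from Fam91a1 (chr15:58395224), 9.79 in an intron of Osbpl6 (chr2:76464073) and 9.63 in an intron of Parp1, which codes for the poly(ADP-ribose) polymerase of DNA repair (chr1:180586752). The Fam91a1 bin held 153 and 184 ChIP fragments over 13 input fragments, the Osbpl6 bin 164 and 192 over 17, and the Parp1 bin 246 and 269 over 25. The first 2 had few input fragments beside the median of 27. None of the 3 was among the 6 hottest sites. Rescue F1 heat was 429.1, 235.1 and 174.2 at the 3 sites, and Hum/Hum heat 365.9, 270.0 and 174.3.

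In the rescue F1, symmetric sites had more H3K4me3 than one-sided Hum-type sites on the B6 chromosome, in both replicates, which were divided by the same input. Summed ChIP over input fragments was 1.91 in replicate 1 and 2.19 in replicate 2 at the symmetric sites, and 1.32 and 1.51 at the one-sided sites, ratios of 1.451 and 1.449. With 2 replicates a sign-flip permutation test cannot go below p = 0.5, so no test is given. Sites on the PWD chromosome had 1.67 and 1.89, and PWD-type symmetric sites 1.34 and 1.51. All other rescue F1 hotspots together had 1.96 and 2.20, a sum that includes bins marked PRDM9-independent. Per bin the order turned, with medians of 39 and 44 fragments at the symmetric sites against 30 and 34 at the others, and a median enrichment of 1.19 against 0.877. In Hum/Hum males, median enrichment was 1.51 (1.47 to 1.55) at the symmetric sites. It was higher, 1.68 (1.62 to 1.72), at those on the B6 chromosome.

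For their H3K4me3, symmetric sites as a class had less DMC1 than one-sided Hum-type sites. This difference was not seen in the medians close to the limits of the B6 share. Heat divided by enrichment had a median of 65.9 (64.3 to 67.4, n = 4487) at the symmetric sites with enrichment above 0, against 90.6 (85.9 to 95.2, n = 1326) at Hum-type sites on the B6 chromosome, 95.2 (82.8 to 101.1, n = 243) at those on the PWD chromosome and 70.9 at PWD-type symmetric sites. Among symmetric sites it was 84.3 at a B6 share of 0.1 to 0.2, 59.6 (55.1 to 63.7) at 0.6 to 0.7 and 74.9 at 0.8 to 0.9. In Hum/Hum males the same sites, with Hum/Hum heat over Hum/Hum enrichment, lay between 78.9 and 87.1 in every symmetric bin and at 82.5 above 0.9, so the dip was not seen there. Hum/PWD F1 heat over rescue F1 enrichment had the dip too, with 78.2, 49.8 and 57.6 in the same 3 bins and 74.6 above 0.9. Close to the limits the medians stood in the other order. They cover 61 sites inside and 47 outside the lower limit, and 113 and 150 at the upper, without intervals. Rescue F1 heat per enrichment was 83.7 just inside the lower limit (0.1 to 0.12) and 74.9 just outside it (from 0.08). At the upper limit it was 75.2 just inside (0.88 to 0.9) and 65.5 just outside (up to 0.92).

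**Figure D4:**
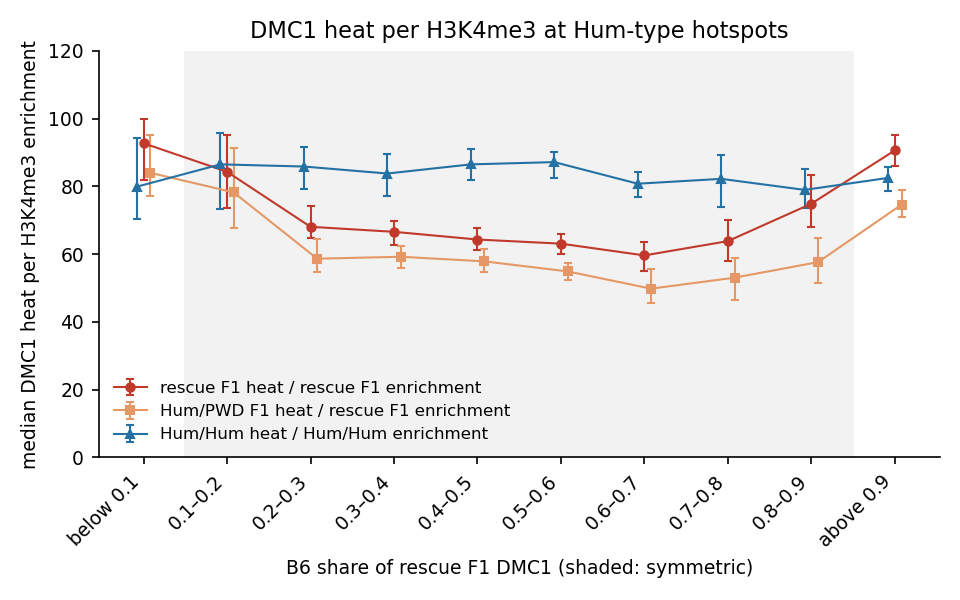
Median DMC1 heat per H3K4me3 enrichment at Hum-type hotspots against the B6 share of DMC1 in the rescue F1, with 95% order-statistic intervals over hotspots. Rescue F1 values are 59.6 at a share of 0.6 to 0.7 and 90.6 above 0.9, while Hum/Hum values of the same sites stay between 78.9 and 87.1 in the shaded symmetric range.

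The dip in the plot of heat per H3K4me3 was also present when other measurements set the classes. The rescue F1 enrichment stayed the divisor throughout, so the H3K4me3 side was not repeated. With classes from the Hum/PWD F1 share, rescue F1 heat per enrichment had medians of 62.3 (60.6 to 64.1, n = 3333) from 0.3 to 0.7, 90.3 (85.5 to 94.9, n = 1420) above 0.9 and 98.3 (91.3 to 108.9, n = 270) below 0.1. With classes from the H3K4me3 share and at least 30 informative reads, it was 53.2 (51.3 to 55.3, n = 1800), 82.1 (73.8 to 91.6, n = 452) and 99.98 (78.7 to 118.8, n = 53). Both the H3K4me3 share and the read minimum come from the same ChIP as the divisor. Heat per enrichment also fell with enrichment itself, so sites were compared within 4 ranges of enrichment with nearly equal numbers of sites over both classes. The ratio of symmetric sites to sites on the B6 chromosome was 0.909, 0.806, 0.778 and 0.708 in the lowest to the highest range. In the lowest the medians were 116.8 (110.3 to 123.4) and 128.5 (116.0 to 140.6), with overlapping intervals, and in the highest 50.6 (48.3 to 53.0) and 71.5 (63.8 to 80.6). The highest range ran from 2.08 to 12.2 and held 1286 symmetric sites. It held 167 sites on the B6 chromosome, where enrichment reached only 6.52. Enrichment was thus not matched within this range, and the part of this in the ratio was not tested. DMC1 signal depends both on how often a site breaks and on how long the ends stay coated, and these data cannot tell the 2 apart.

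By position the symmetric sites were mostly intronic, as were other rescue F1 hotspots. Introns held 2600 centres, 57.4% (55.9 to 58.8%), intergenic DNA 1643, 36.3%, UTRs 105, 2.32%, coding exons 99, 2.19%, and non-coding exons 83, 1.83%. Other rescue F1 hotspots had 54.2% in introns, 38.9% in intergenic DNA, 2.17% in UTRs, 2.35% in coding exons and 2.48% in non-coding exons. Within 1000 bp of a protein-coding transcription start lay 70 sites, 1.55% (1.22 to 1.95%), against 2.57% of all rescue F1 hotspots. The latter include bins marked PRDM9-independent, which the rule removes, and the part of this in the difference was not tested. Classes with marked bins likewise removed were also low. Hum-type sites on the B6 chromosome had 1.35% (0.853 to 2.12%) and PWD-type symmetric sites 1.11% (0.710 to 1.72%).

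The hottest symmetric sites were spread over several chromosomes. The hottest lay in an intron of the antisense gene Gm16090 (chr18:20641478), with a heat of 949.9 in the rescue F1, 801.5 in the Hum/PWD F1, 744.1 in B6/Hum and 756.6 in Hum/Hum males. An intron of the lincRNA gene Gm47771 (chr10:17565264) had 922.5, 847.9, 955.7 and 841.4. The site in an intron of Kdm3b, a histone demethylase gene (chr18:34810484), had 835.9, 673.5, 785.3 and 640.2, and that in an intron of Slc26a4, the pendrin anion exchanger gene (chr12:31533749), had 834.6, 642.5, 882.6 and 744.7. Of these 4 sites and those at Phtf2 and Cfap54, Phtf2 alone had less heat in the rescue F1 than in Hum/Hum males, unlike the median site. Their B6 shares ran in the rescue F1 from 0.419 at Cfap54 to 0.747 at Phtf2.

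Genes of meiotic recombination were searched for symmetric sites in the gene or within 2000 bp. Of 34 autosomal genes matched from a list of 39 for double-strand breaks and repair, 11 held any rescue F1 hotspot. Of 20 matched from a list of 22 for the chromosome axis and synaptonemal complex, 1 held a symmetric site and 8 held any rescue F1 hotspot. Of 20807 autosomal protein-coding genes 2135, 10.3%, held a symmetric site. How many of them held any rescue F1 hotspot was not counted. The 11 and 8 genes therefore have no background here and cannot be set against the 10.3%. Introns of Mlh3, a crossover gene of the first list, held 2 neighbouring sites (chr12:85255375 and chr12:85257107), with rescue F1 heats of 125.4 and 140.3 and Hum/Hum heats of 168.1 and 209.5. The B6 shares of the second were 0.686 in the rescue F1, 0.5 in the Hum/PWD F1 and 0.313 by H3K4me3 from 16 informative reads. An intron of Syce3, a central element gene of the synaptonemal complex (chr15:89395872), held a site with 69.7 in the rescue F1, 51.3 in the Hum/PWD F1, 47.7 in B6/Hum and 100.1 in Hum/Hum males.

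All 19 autosomes held symmetric sites, from 154 on chromosome 19 to 377 on chromosome 2. Density was 1.32 per Mb on chromosome 9 and 2.51 on chromosome 19. Hum-type hotspots without a B6 share, which could not be classed, were 31.9% of Hum-type hotspots on chromosome 9 and 6.90% on chromosome 19, and their part in the density was not tested. The percent symmetric among Hum-type sites with a share was 69.7% (64.9 to 74.2%) on chromosome 4 and 77.9% (72.5 to 82.5%) on chromosome 18, and had a Spearman correlation of 0.0070 with chromosome length over 19 chromosomes.

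Heat relative to Hum/Hum differed more between chromosomes. The median ratio of rescue F1 to Hum/Hum heat was 0.525 (0.485 to 0.572) on chromosome 9, 0.532 (0.502 to 0.584) on chromosome 1, 0.736 (0.665 to 0.777) on chromosome 18 and 0.819 (0.719 to 0.927) on chromosome 19. In the Hum/PWD F1 it was 0.448 (0.420 to 0.496) on chromosome 1, 0.682 (0.616 to 0.741) on chromosome 18 and 0.671 (0.571 to 0.735) on chromosome 19. B6/Hum males had 0.705 to 0.898, with the lowest on chromosome 14 and the highest on chromosome 17. The Spearman correlation with length was -0.451 in the rescue F1, -0.314 in the Hum/PWD F1 and -0.2 in B6/Hum males over 19 chromosomes, which share libraries and the Hum/Hum denominator. For H3K4me3 enrichment relative to Hum/Hum it was 0.228.

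**Figure D5:**
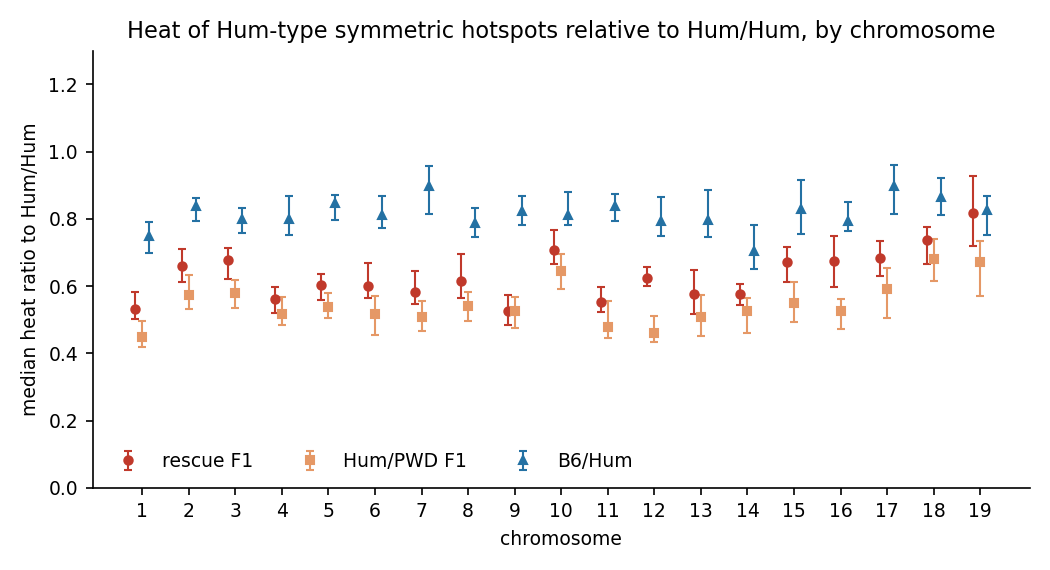
Median ratio of DMC1 heat to Hum/Hum heat at Hum-type symmetric hotspots by autosome, for rescue F1, Hum/PWD F1 and B6/Hum males, with 95% order-statistic intervals over hotspots. Rescue F1 medians run from 0.525 on chromosome 9 to 0.819 on chromosome 19, and B6/Hum medians from 0.705 to 0.898.

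The plot by chromosome shows B6/Hum above the rescue F1 on every autosome, with the narrowest gap on chromosome 19, where 0.827 stood beside 0.819. Along chromosomes, cut into 5 equal parts from the centromere, the symmetric sites had the same spread as all rescue F1 hotspots, with 17.1% of sites and 17.3% of all hotspots in the part nearest the centromere and 24.4% and 23.3% in the farthest. The ratio of rescue F1 to Hum/Hum heat was 0.599, 0.580, 0.576, 0.637 and 0.695 in order from the centromere. The percent symmetric among Hum-type sites was 72.6%, 75.4%, 75.1%, 72.3% and 75.1%, with no order along the arm.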

How the data were processed

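The deposited mm10 tables were the starting point. Per the submitters' processing notes, the aligner was BWA, and the H3K4me3 work also used SAMtools and bedtools. The sources used here give neither the hotspot caller nor a definition of heat. The DMC1 heat is a relative signal deposited by the authors, and the B6 share of DMC1 is a fraction deposited by the authors without its read number, so its depth is unknown. H3K4me3 values are counts of ChIP and input fragments per 1 kb bin, with an enrichment (a maximum-likelihood ratio to local background), a likelihood-ratio p-value and a B6 share as a fraction with its informative reads, per the file headers. The library behind the B6/B6 map is from other submitters, and 3 mm9 lists were not used.

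Map centres were matched within 1000 bp, and bins by identical centre. B6 shares of H3K4me3 were used from 10 informative reads. Motifs and words were counted in the GRCm38.p6 reference, which holds B6 and not PWD sequence, and genes came from GENCODE M21. Outside genes, the nearest protein-coding gene is named. Named sites are the 6 hottest, the 3 highest and 3 lowest in Hum/PWD F1 over rescue F1 heat, the 3 highest in enrichment and the 3 most balanced, the last 4 sets among the hotter 0.25 (heat from 120.3, n = 1320), and sites at genes of both lists, of which some are not reported here. Printed sequences are those of the hottest sites that meet the motif rule, without chromosome 18. The hotspots and lists were chosen with earlier results of these data known. Summed ChIP over input leaves out bins with input above 10 times the median. The matching and motif code was tested on simulated data. Tools were samtools 1.23.1, pysam 0.24.0, Python 3.11.15, pandas 2.3.3, NumPy 2.4.6, Matplotlib 3.10.9 and SciPy 1.17.1. Alternatives were other match limits, share limits, bins, heat ranges, read minimums, H3K4me3 measures and motif windows, and each replicate left out.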

Additional observations from a re-analysis of the deposited data

How the results depend on the processing

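Of 92 alternative values 63 stayed within the interval or spread of the reported value (for the number of sites, within 1.5 times), 29 moved beyond it and 0 changed direction. The number of sites was 3108 with symmetry from 0.3 to 0.7 and 5012 with marked bins kept, against 4530. In the hotter 0.5 of the rescue F1 map 2541 sites were left, of which 99.96% were found in the Hum/PWD F1 and 99.5% in B6/Hum males. There, 96.7% were symmetric in the Hum/PWD F1 and 97.7% by H3K4me3, with a median H3K4me3 share of 0.511 and enrichment of 1.97. The heat ratios to Hum/Hum were then 0.741 in the rescue F1, 0.677 in the Hum/PWD F1 and 0.951 in B6/Hum males, and heat per enrichment relative to B6-chromosome sites was 0.660, against 0.727 in all sites. With symmetry from 0.3 to 0.7, 98.5% were found in the Hum/PWD F1 and 98.6% in B6/Hum males, 88.4% were symmetric in the Hum/PWD F1 and 88.3% by H3K4me3, the B6/Hum ratio was 0.850, the H3K4me3 share 0.515 and enrichment 1.42. With PRDM9-independent bins kept, enrichment was 1.33 and the ChIP over input ratio 1.52. H3K4me3 symmetry was 97.4% from 20 informative reads and 87.4% with no minimum. ChIP over input fragments in place of enrichment gave 0.807. The 13-mer was near 0.640% of centres within 50 bp and 2.56% within 250 bp, its degenerate form near 16.3%, and 1.24% of sites without repeat-masked bases held it. Heat divided by the map sum gave 0.605 in the rescue F1 and 0.521 in the Hum/PWD F1. The last 2 settings were added after the data were seen. Without 1 or the other replicate the ChIP over input ratio was 1.449 to 1.451. No paired analysis was possible because the genotypes share fewer than 2 replicate numbers, while site classes were compared within each H3K4me3 replicate. Depth limits the H3K4me3 shares, since 77.5% of bins reached 10 informative reads, and the spread between males of 1 genotype is not known for DMC1.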
